A study of Homo sapiens with 24 samples.

Results

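The genes described here are 34 members of the extracellular matrix: 22 collagen chains, 8 laminin chains, and the linkers and proteoglycans NID1, NID2, HSPG2 and AGRN that complete a basement membrane. They were listed by symbol, and each symbol was matched to 1 Ensembl gene among the 60675 genes counted in every library. RNA-seq was performed in ACHN, a renal cancer cell line given as ccRCC in the labels, and in HK2, a kidney proximal tubular epithelial cell line. Each line was measured in 4 groups of 3 libraries, 24 libraries in all: a control hairpin (shNC), a hairpin against KDM5C (shKDM5C), a hairpin against YY1 (shYY1), and both targets together (Dsh). According to the methods, knockdown cells were made with lentiviral pLKO.1 hairpins under puromycin, and Dsh cells by a further GFP-labelled KDM5C hairpin in YY1-depleted cells. All groups therefore carry a stable vector, each kind of cell is 1 line, and the labels do not say which hairpin of each target was sequenced. The methods describe the further vector, and a screen for green fluorescence, for Dsh cells and not for the other groups. The part of these steps in the Dsh values cannot be told apart from the knockdowns and was not tested. KDM5C is a demethylase of lysine 4 on histone H3, and YY1 is a zinc finger transcription factor. The comparisons ask how each matrix gene responds to the loss of either protein and of both.

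A basement membrane is a thin sheet of matrix under an epithelium. Laminins, trimers of an alpha, a beta and a gamma chain, form a first network on the cell surface, and collagen IV, a trimer of alpha chains, forms a second, covalently crosslinked network, while nidogens, perlecan (HSPG2) and agrin (AGRN) bridge them. Fibrillar collagens such as type I and type V make up the interstitial matrix and are known mainly as products of fibroblasts, and collagens VI, VII, XII, XVI and XVII tie fibrils, cells and basement membrane together. In the kidney, collagen IV trimers of the alpha3, alpha4 and alpha5 chains form the mature glomerular basement membrane and parts of the tubular one, and faults in them cause Alport syndrome.

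Library totals ran from 15926561 to 24272298 counts, with a median of 18544194. KDM5C, the first target, was lower with its hairpins in both lines: its mean was 70.8 CPM in ACHN shNC, 43.1 in shKDM5C and 40.6 in Dsh, and 190.7 CPM in HK2 shNC, 56.2 in shKDM5C and 68.2 in Dsh (CPM, counts scaled to a common library size with TMM factors). YY1, the second target, had means of 139.1, 76.8 and 97.0 CPM in ACHN shNC, shYY1 and Dsh, and 207.5, 63.9 and 74.2 CPM in HK2. With shYY1, YY1 was lower and KDM5C higher than in shNC in both lines, each at an edgeR adjusted p under 0.05. The part of the KDM5C increase in the shYY1 values was not tested. One library stood apart: replicate 1 of HK2 shKDM5C differed from the other libraries of its group by a mean of 0.738 to 0.745 log2 units per gene, against 0.231 to 0.334 for the 22 other replicate pairs, and its KDM5C was 34.1 CPM beside 67.5 and 67.1. Results that rest on it are given with and without it. Summed levels of the marker lists were 0.163 to 2.05 CPM for endothelial cells and 1.01 to 8.08 CPM for leukocytes. The keratin KRT8 led the renal epithelial list in both lines. That list summed in ACHN to 3047 to 3098 CPM in shNC, 3814 to 3917 in shKDM5C, 3521 to 3605 in shYY1 and 2736 to 2851 in Dsh, and in HK2 to 3368 to 3458, 2931 to 3475, 2564 to 2666 and 2203 to 2288 CPM. Its part in the results was not tested. Nothing in the labels says that replicates came from separate cultures, so p-values measure the spread between these libraries. In bulk RNA, fewer cells of a kind and less RNA per cell cannot be told apart.

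The 6 collagen IV genes lie in 3 head-to-head pairs, each read in opposite directions from a shared stretch of promoter. These stretches are shown because the members of a pair did not always move together in the counts described further on. RefSeq sequences of GRCh38.p14 are written on the forward strand with each CCAAT and each GGGCGG, on either strand, in capitals. The COL4A1/COL4A2 stretch is chr13:110307158-110307283, all 126 bases between the start sites. The COL4A4/COL4A3 stretch is chr2:227164374-227164623, 250 of the 418 bases between the start sites, and the COL4A6/COL4A5 stretch is chrX:108439588-108439837, 250 of 379 bases. COL4A6 had 2 promoter windows, and its start site nearest COL4A5 was taken. Counts per gene do not say which start of COL4A6 was used.
COL4A1/COL4A2: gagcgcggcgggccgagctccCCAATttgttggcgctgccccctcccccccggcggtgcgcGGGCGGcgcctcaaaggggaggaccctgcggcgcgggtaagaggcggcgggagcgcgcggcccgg
COL4A4/COL4A3: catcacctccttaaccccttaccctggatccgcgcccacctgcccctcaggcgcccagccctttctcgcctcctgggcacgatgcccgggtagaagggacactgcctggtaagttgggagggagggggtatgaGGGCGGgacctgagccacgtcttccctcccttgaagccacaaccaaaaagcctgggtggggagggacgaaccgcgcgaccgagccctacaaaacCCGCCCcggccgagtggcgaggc
COL4A6/COL4A5: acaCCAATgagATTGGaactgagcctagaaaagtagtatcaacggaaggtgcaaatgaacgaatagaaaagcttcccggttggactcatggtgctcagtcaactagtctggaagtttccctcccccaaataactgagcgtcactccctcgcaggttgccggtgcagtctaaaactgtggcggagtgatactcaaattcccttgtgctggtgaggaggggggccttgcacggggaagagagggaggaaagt
The G and C content was 80.2% in the first stretch, 66.4% in the second and 51.2% in the third. RefSeq promoter windows (250 bases before to 50 after a start) were matched for 27 of the 34 members, in 32 windows, and compared with all 35116 windows, counting both strands. AGRN, COL1A1, COL1A2, COL3A1, COL5A2, COL6A1 and COL8A1 had no matched window and were not searched. GGGCGG, the GC box, was in 24 of the 32 windows, from 20 of the 27 members, and in 45.0% of all windows. CCAAT was in 8 of the 32 windows, from 8 members, and in 34.6% of all windows. TATAAA was in 5 of the 32 windows, from 5 members, and in 11.5% of all windows. CCATNTT, the core letters of the YY1 motif, was in no window of the 27 members and in 15.6% of all windows. No match says only that these letters are not in these windows.

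In control cells, network collagen IV was the most abundant member of the set in both lines. Levels between genes were compared as CPM per kb of exonic length. COL4A1 (ENSG00000187498, chromosome 13 from 110148963 to 110307149) and COL4A2, which form the ubiquitous alpha1 and alpha2 chains, had 363 ± 5.7 and 308 ± 7.09 CPM per kb in ACHN shNC (SD, n = 3), that is 28.8% and 24.5% of the summed levels of the 34 members. In HK2 shNC they had 242 ± 2.37 and 207 ± 7.63 CPM per kb, 21.2% and 18.1% of the sum. Agrin, a heparan sulfate proteoglycan, came next in both lines at 105 ± 2.61 and 161 ± 9.75 CPM per kb, followed by LAMC1, the common laminin gamma chain, at 68.7 ± 0.352 and 77.1 ± 1.37. In ACHN the next was COL1A1 at 59.5 ± 2.73 CPM per kb, whereas in HK2 it was the laminin alpha5 chain LAMA5 at 73.6 ± 3.09, whose libraries overlapped those of LAMC1. Further down in ACHN, COL7A1 (30.4 ± 2.56 CPM per kb) overlapped LAMB2 (27.8 ± 1.51), and COL6A1, COL12A1 and LAMA5 lay between 13.5 and 14.6 CPM per kb and were not separated by their spread. Because strand was not used in counting, reads where COL4A1 and COL4A2 overlap cannot be told apart. The same holds for NID2 with RTRAF, LAMB1 with DLD, LAMA5 with ADRM1, COL18A1 with SLC19A1 and COL4A3 with MFF-DT. Over all libraries COL4A3 had 1051 counts and MFF-DT 612.

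Of the 34 members, COL1A2, COL3A1 and LAMA4 passed the filter on low counts in no comparison. Their counts were 0 or 1 per library for COL1A2, the second chain of collagen I, 0 to 5 for COL3A1 and 0 to 8 for LAMA4.

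**Figure D1:**
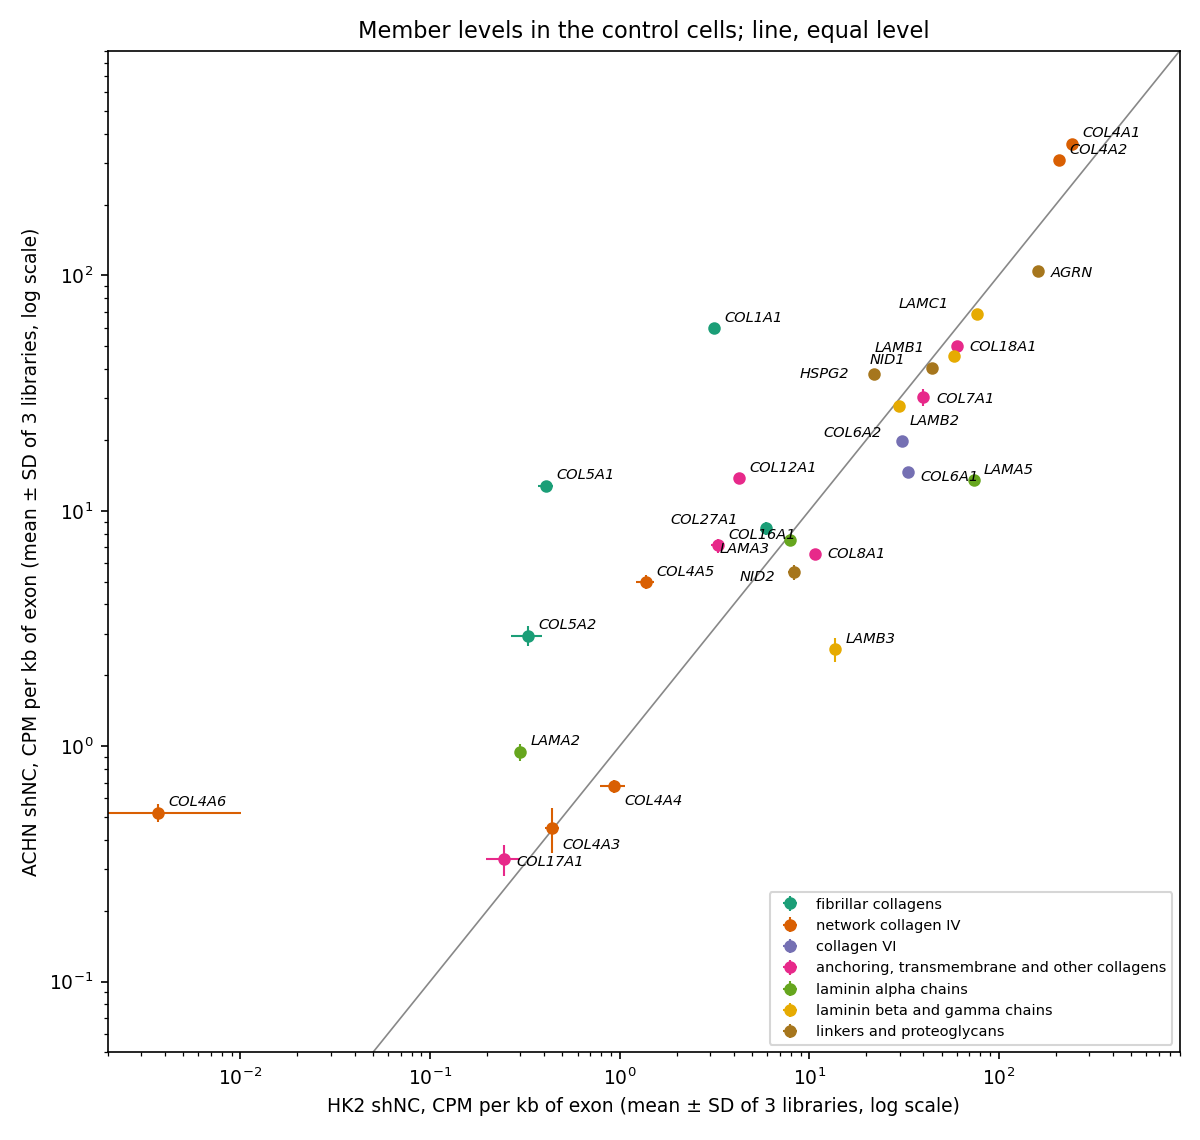
Mean level of the 29 tested members in control cells, HK2 shNC against ACHN shNC, in CPM per kb on log axes, with bars for the SD of 3 libraries and a line where both are equal. COL4A1 and COL4A2 sit at the top right, and COL1A1, COL5A1 and COL4A6 lie on the ACHN side of the line.

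The control lines differed in their interstitial collagens, in the collagen IV chain COL4A6 and in the beta chain of laminin-332 and the alpha chain of laminin-511. Of 29 members tested, 12 were higher and 14 lower in ACHN than in HK2 shNC at an edgeR adjusted p under 0.05 over all genes tested, beside 38.6% and 38.0% of all genes. All 4 fibrillar collagens tested were higher in ACHN, and all 4 laminin beta and gamma chains of the set were lower. COL1A1, the alpha1 chain of collagen I (ENSG00000108821, chromosome 17 from 50183289 to 50201632), had 595, 604 and 554 CPM in the ACHN shNC libraries and 29.2, 30.8 and 32.5 CPM in those of HK2. The lines did not overlap, and the difference was 4.23 (standard error 0.0461, edgeR adjusted p = 1.31e-31) on the log2 scale. COL5A1 and COL5A2, the chains of collagen V that nucleates collagen I fibrils, differed by 4.96 (standard error 0.0712, edgeR adjusted p = 8.58e-29) and 3.15 (standard error 0.144, edgeR adjusted p = 2.71e-17). COL4A5, at 40.8, 43 and 46.9 CPM in ACHN and 13.5, 11 and 11.4 CPM in HK2, differed by 1.85 (standard error 0.0862, edgeR adjusted p = 3.81e-17). Its head-to-head neighbour COL4A6 had 272 counts over the ACHN shNC libraries and 2 over those of HK2, a ratio of 135 with a 95% counting interval of 37.1 to 1124. COL13A1, a transmembrane collagen, had 41 counts against 0, at least 13.6-fold higher in ACHN with a floor of 3 counts over the group.

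On the other side, LAMA5 had 195, 200.1 and 185 CPM in ACHN shNC and 1103, 1027 and 1027 CPM in HK2 shNC, a log2 difference of -2.45 (standard error 0.0371, edgeR adjusted p = 2.52e-28). LAMB3, the beta chain of laminin-332 (ENSG00000196878, chromosome 1 from 209614870 to 209652466), read 12.6, 13.2 and 10.5 CPM against 62, 62.8 and 68.2 CPM, a difference of -2.42 (standard error 0.0776, edgeR adjusted p = 7.17e-21). Both genes were several times lower in ACHN, with no overlap. COL6A1 and COL6A2, which form beaded filaments around basement membranes, differed by -1.20 (standard error 0.0428, edgeR adjusted p = 8.5e-20) and -0.66 (standard error 0.0461, edgeR adjusted p = 3.92e-13). COL8A1, a short-chain network collagen, differed by -0.73 (standard error 0.0486, edgeR adjusted p = 1.35e-13). These values compare 1 line of each kind. The call of LAMB2 alone (-0.11, adjusted p = 0.0116) was lost on leaving out a library, ACHN shNC replicate 3 (0.200).

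Knockdown of KDM5C in ACHN lowered most of the set. Of 30 members tested against shNC, 20 fell and 7 rose, beside 27.7% and 28.9% of all genes, with a median log2 change of -0.22 against -0.01 over all genes. Knockdown of YY1 gave 16 members higher and 9 lower of 29 tested, beside 24.2% and 24.5%, with a median of 0.10. In Dsh, 12 of 31 rose and 14 fell, beside 30.7% and 32.0%. The median absolute log2 change in Dsh was 0.948 over the members tested and 0.393 over all genes. A log2 change of at least 1.5, the size the study used, was reached by 3 called members with shKDM5C, 6 with shYY1 and 8 in Dsh, beside 3.34%, 3.13% and 8.42% of all genes. The summed level of the 34 members was 11353 ± 240.0 CPM in shNC, 8943 ± 147 in shKDM5C, 11751 ± 128 in shYY1 and 10535 ± 534 in Dsh (SD, n = 3). The 3 knockdowns share the same shNC libraries, so their values are given side by side below.

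**Figure D2:**
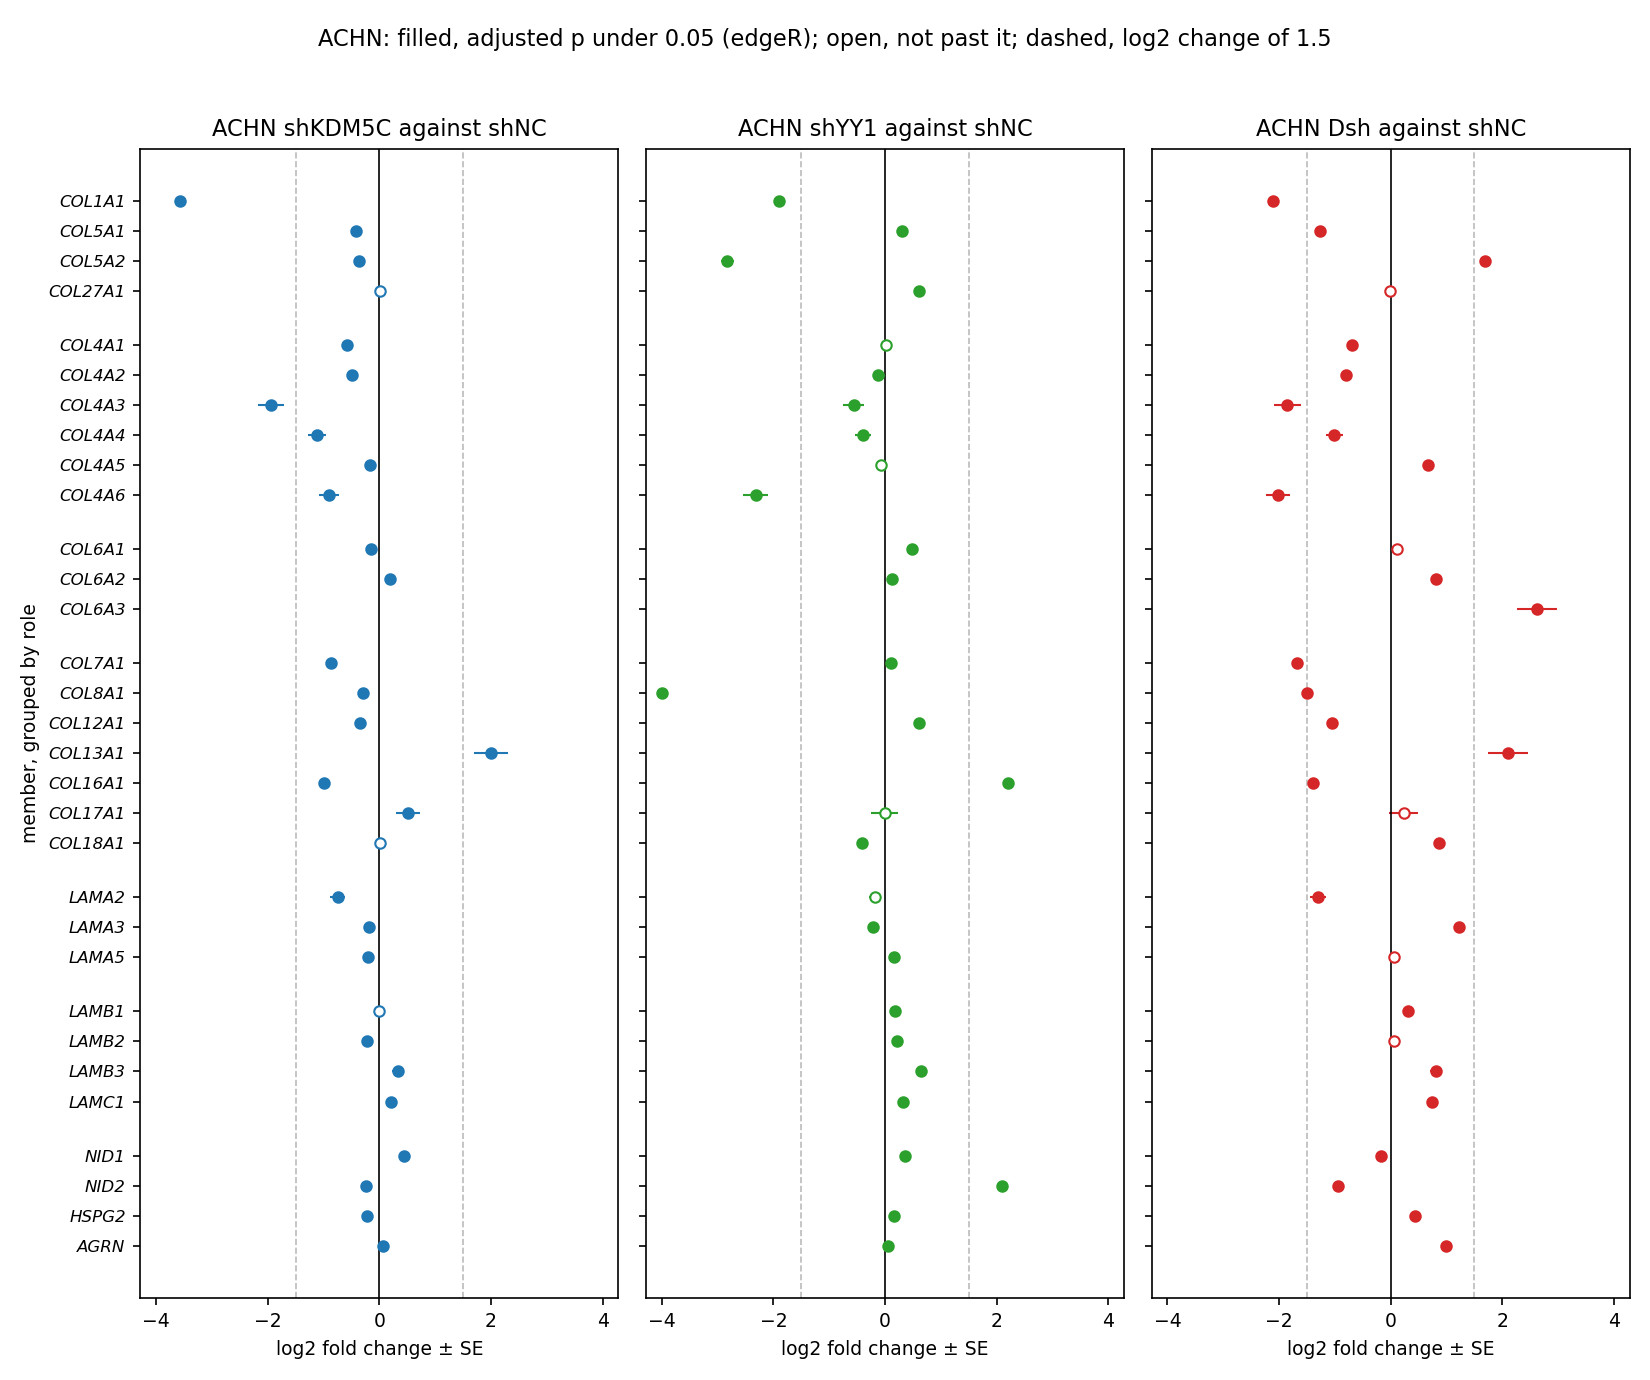
Log2 fold change of each tested member against shNC in ACHN, for shKDM5C, shYY1 and Dsh, grouped by role, with bars for the standard error, filled points for an edgeR adjusted p under 0.05 and dashed lines at -1.5 and 1.5. COL1A1 is lower in each comparison, COL8A1 and COL5A2 are lowest with shYY1, and COL16A1 and NID2 are higher with shYY1 and lower in Dsh.

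Among fibrillar collagens of ACHN, COL1A1 and the collagen V chains took different courses. COL1A1 fell from 595, 604 and 554 CPM in shNC to 48.3, 52.9 and 47.9 CPM with shKDM5C, 162, 159 and 156 CPM with shYY1 and 128, 132 and 144 CPM in Dsh. All knockdown libraries lay below all control libraries, and those of shKDM5C were lowest. The log2 changes were -3.57 (standard error 0.0422, edgeR adjusted p = 7.55e-28) with shKDM5C, -1.90 (standard error 0.0322, edgeR adjusted p = 1.78e-31) with shYY1 and -2.11 (standard error 0.0527, edgeR adjusted p = 1.96e-16) in Dsh. COL5A2 (ENSG00000204262, chromosome 2 from 189031896 to 189179879) had 19.2, 23.2 and 20.8 CPM in shNC, 17.1, 17.6 and 14.9 CPM with shKDM5C, 3.1, 2.8 and 3.13 CPM with shYY1 and 65.4, 67.7 and 70.3 CPM in Dsh. Dsh was thus the highest group and shYY1 the lowest, with no overlap between groups. Its log2 change was -2.83 (standard error 0.116, edgeR adjusted p = 1.98e-20) with shYY1 and 1.69 (standard error 0.0718, edgeR adjusted p = 3.56e-13) in Dsh, and it was -0.37 with shKDM5C (adjusted p = 7.44e-04, edgeR).

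COL5A1, the other collagen V chain, had 146, 138 and 145 CPM in shNC, 106, 109 and 108 CPM with shKDM5C, 177, 179 and 182 CPM with shYY1 and 60.5, 55.5 and 61.4 CPM in Dsh. It therefore stood on the other side of shNC from COL5A2 both with shYY1 (0.31 on the log2 scale) and in Dsh (-1.27). As a level per kb, the ratio of COL5A1 to COL5A2 was 4.37 ± 0.524 in shNC, 38.2 ± 2.28 with shYY1 and 0.558 ± 0.0334 in Dsh (SD, n = 3). COL27A1, a fibrillar collagen of cartilage, rose with shYY1, from 119, 125 and 110.2 to 184, 188 and 178 CPM (0.61 (standard error 0.0385, edgeR adjusted p = 2.35e-15)), and was -0.02 in Dsh (adjusted p = 0.834, edgeR). Fibroblast and mural markers also moved in ACHN. Of the 12 listed, 6 could be tested in Dsh, where 4 fell and 2 rose, beside 32.0% and 30.7% of all genes. The mural genes RGS5 (-2.94) and PDGFRB (-2.04) were among the 4 that fell. The sum of the list was 417 to 457 CPM in shNC, 466 to 513 in shKDM5C, 340 to 355 in shYY1 and 169 to 184 in Dsh. THY1 made up most of it, LUM was at 0 in all ACHN libraries, and 7 of the 12 had means under 1 CPM. Their part in these results was not tested.

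**Figure D3:**
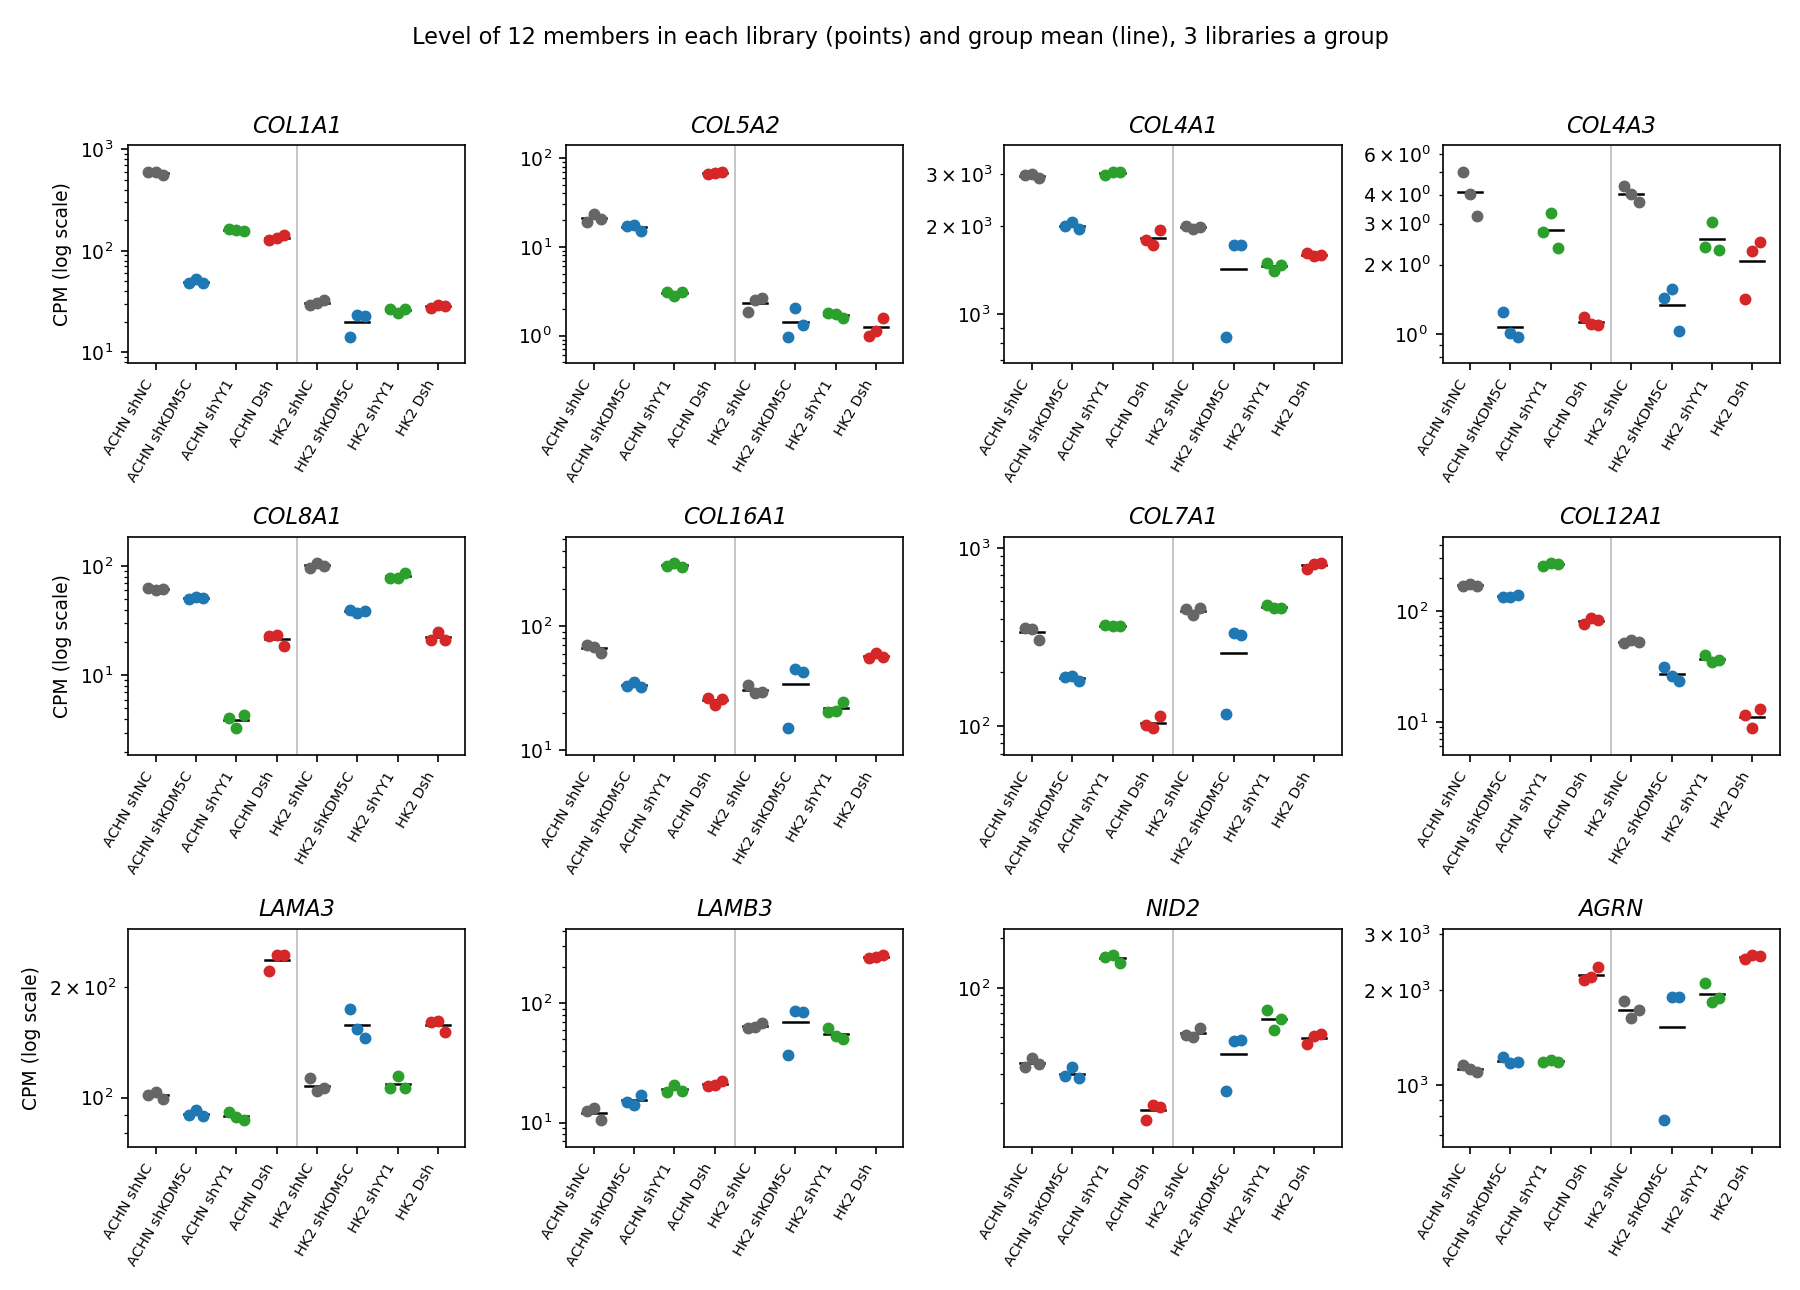
CPM of 12 members on log axes in the 8 groups, each point a library and each line a group mean (n = 3). COL5A2 is at 2.8 to 3.13 CPM in ACHN shYY1 and 65.4 to 70.3 CPM in ACHN Dsh, and LAMB3 is highest in HK2 Dsh.

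Of the 6 collagen IV genes in ACHN, 6 were lower with shKDM5C, 4 lower and 2 not called with shYY1, and 5 lower and 1 higher in Dsh, beside 27.7%, 24.5% and 32.0% of all genes lower. The shKDM5C call of COL4A5 (-0.18) was lost without shKDM5C replicate 1 (0.0674) or shNC replicate 3 (0.12), and the shYY1 call of COL4A4 (-0.40) without shNC replicate 2 (0.0901), shYY1 replicate 1 (0.114) or shYY1 replicate 3 (0.0815). COL4A1 had 2982, 3011 and 2919 CPM in shNC, 1994, 2059 and 1961 CPM with shKDM5C, 2998, 3071 and 3049.9 CPM with shYY1 and 1799, 1721 and 1940.3 CPM in Dsh. The shKDM5C and Dsh libraries lay below shNC, and shYY1 overlapped it. Log2 changes were -0.58, 0.01 and -0.70 (adjusted p = 3.04e-16, 0.682 and 7.7e-11, edgeR), and those of COL4A2 were -0.50, -0.12 and -0.80. COL4A3, the alpha3 chain of the mature glomerular network (ENSG00000169031, chromosome 2 from 227164565 to 227314792), had 5.03, 4.04 and 3.25 CPM in shNC, 1.25, 1.01 and 0.98 with shKDM5C, 2.78, 3.34 and 2.35 with shYY1 and 1.18, 1.11 and 1.1 in Dsh. It changed by -1.94 (standard error 0.235, edgeR adjusted p = 1.15e-07) with shKDM5C and -1.85 (standard error 0.238, edgeR adjusted p = 1.72e-06) in Dsh. With shYY1 the change was -0.56 (standard error 0.193, edgeR adjusted p = 0.0159), and this call was lost without shNC replicate 1 (0.159) or shYY1 replicate 3 (0.0777). COL4A4, its head-to-head partner, changed by -1.12 (standard error 0.158, edgeR adjusted p = 1.35e-06) with shKDM5C and by -1.01 in Dsh.

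The X-linked pair parted in ACHN. COL4A6 (ENSG00000197565, chromosome X from 108155607 to 108439497) had 5.3, 4.8 and 4.44 CPM in shNC, 2.87, 2.98 and 2.01 with shKDM5C, 0.64, 0.97 and 1.34 with shYY1 and 0.978, 1.16 and 1.39 in Dsh. All knockdown libraries were below shNC, and the changes were -0.90 (standard error 0.181, edgeR adjusted p = 1.43e-04) with shKDM5C, -2.32 (standard error 0.233, edgeR adjusted p = 2.74e-10) with shYY1 and -2.02 (standard error 0.216, edgeR adjusted p = 1.68e-07) in Dsh. COL4A5, its head-to-head neighbour, had 40.8, 43 and 46.9 CPM in shNC and 66.1, 71.5 and 70.0 CPM in Dsh, where every library was above shNC. It rose by 0.67 in Dsh (standard error 0.0619, edgeR adjusted p = 2.06e-08), with -0.08 in shYY1 (adjusted p = 0.31, edgeR). The per kb ratio of COL4A5 to COL4A6 was 9.65 ± 1.52 in shNC and 63.6 ± 9.18 in Dsh. Podocyte markers, the list of the cells that make the alpha3 to alpha5 network, summed to 460 to 470 CPM in ACHN shNC, 355 to 367 in shKDM5C, 501 to 509 in shYY1 and 292 to 321 in Dsh. Of the 3 that could be tested, 3 were lower with shKDM5C, beside 27.7% of all genes. With shYY1, 2 were higher and 1 lower, beside 24.2% and 24.5%, and in Dsh 1 was lower, beside 32.0%. SYNPO carried most of that sum, 4 of the 7 had means under 1 CPM, and the list's part in the collagen IV values was not tested.

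Collagens that anchor and link the membrane included the steepest response to YY1 loss in ACHN. COL8A1 (ENSG00000144810, chromosome 3 from 99638475 to 99799226) had 63, 60.2 and 61.2 CPM in shNC, 49.9, 51.8 and 50.7 with shKDM5C, 4.11, 3.29 and 4.31 with shYY1 and 23, 23.3 and 18.7 in Dsh. The shYY1 libraries were lowest, and Dsh lay between shYY1 and shKDM5C. Its changes were -4.0 (standard error 0.0800, edgeR adjusted p = 1.79e-29) with shYY1, -1.5 (standard error 0.0765, edgeR adjusted p = 4.63e-12) in Dsh and -0.29 with shKDM5C. COL16A1, which associates with fibrils and cell adhesion sites (ENSG00000084636, chromosome 1 from 31652247 to 31704319), had 69.6, 67.5 and 60.8 CPM in shNC, 32.7, 35.2 and 32.2 with shKDM5C, 305, 319 and 297 with shYY1 and 26.5, 23 and 25.9 in Dsh. It was far above shNC with shYY1 and below it in the other groups, by 2.20 (standard error 0.0402, edgeR adjusted p = 1.48e-30) with shYY1, -1.0 (standard error 0.0575, edgeR adjusted p = 1.14e-13) with shKDM5C and -1.38 in Dsh (adjusted p = 5.82e-12, edgeR). COL12A1, a fibril-associated collagen, followed the same order at lower amplitude: 169, 175 and 169 CPM in shNC, 134, 135 and 141 with shKDM5C, 258, 271 and 269 with shYY1 (0.61 (standard error 0.0317, edgeR adjusted p = 1.23e-17)) and 77.1, 86.2 and 83.7 in Dsh (-1.05 on the log2 scale).

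COL7A1, the anchoring fibril collagen of epithelia (ENSG00000114270, chromosome 3 from 48564073 to 48595267), fell in ACHN Dsh from 356, 349 and 304 to 101, 97.2 and 113 CPM, a change of -1.68 (standard error 0.064, edgeR adjusted p = 7.16e-14). It stood at 188, 191 and 179.8 CPM with shKDM5C and 369, 364 and 362 CPM with shYY1, so that shYY1 was the only ACHN knockdown in which it was not below shNC. COL13A1 was scarce, with 41 counts over the shNC libraries, 163 with shKDM5C, 9 with shYY1 and 200 in Dsh. It rose with shKDM5C (2.00 (standard error 0.305, edgeR adjusted p = 3.83e-06)) and in Dsh (2.11 (standard error 0.358, edgeR adjusted p = 4.68e-05)), and it was not tested with shYY1, where the ratio to shNC was 0.223 (95% counting interval 0.0954 to 0.466). COL17A1, a hemidesmosome collagen, changed by 0.51 (standard error 0.21, edgeR adjusted p = 0.0415) with shKDM5C, a call lost without shKDM5C replicate 1 (0.152), shKDM5C replicate 3 (0.0825), shNC replicate 1 (0.082) or shNC replicate 3 (0.158). COL18A1, the source of endostatin, had 432, 422 and 422 CPM in shNC, 325, 324 and 328 with shYY1 and 758, 721 and 838 in Dsh, a decrease and an increase without overlap (-0.41 and 0.87, adjusted p = 1.32e-14 and 3e-11, edgeR). In the collagen VI trimer, COL6A3 had 20 counts in shNC and 140 in Dsh, a ratio of 6.33 (95% counting interval 3.95 to 10.7) and a fitted change of 2.62 (standard error 0.355, edgeR adjusted p = 3.37e-06). COL6A2 was 0.80 in Dsh (adjusted p = 1.85e-10, edgeR) and COL6A1 0.12 (adjusted p = 0.145, edgeR).

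Laminin chains of the set rose rather than fell where they were called in ACHN Dsh, apart from LAMA2. LAMA3, the alpha chain of laminin-332 (ENSG00000053747, chromosome 18 from 23689443 to 23955066), had 102, 104 and 99.2 CPM in shNC, 89.5, 92.3 and 88.9 with shKDM5C, 91.5, 88.7 and 86.9 with shYY1 and 222, 244 and 244 in Dsh. Either single hairpin left it slightly below shNC, and Dsh was more than any other ACHN group. It changed by 1.23 (standard error 0.0491, edgeR adjusted p = 1.43e-13) in Dsh, against -0.18 and -0.21 in the single knockdowns. LAMB3 had 12.6, 13.2 and 10.5 CPM in shNC, 15, 13.9 and 17.2 with shKDM5C, 18.1, 20.6 and 18.5 with shYY1 and 20.3, 20.5 and 22.2 in Dsh. Its changes were 0.33 (standard error 0.103, edgeR adjusted p = 0.00733) with shKDM5C, 0.64 (standard error 0.0901, edgeR adjusted p = 3.4e-07) with shYY1 and 0.81 in Dsh, and the shKDM5C call was lost without shKDM5C replicate 3 (0.0696) or shNC replicate 3 (0.0619). LAMC1 rose from 579, 579 and 574 CPM in shNC to 702, 657 and 670.1, 719, 716 and 749.5 and 936, 981 and 971 CPM with shKDM5C, shYY1 and in Dsh, in the first by 0.21 (standard error 0.029, edgeR adjusted p = 6.88e-07) and in Dsh by 0.74. With shYY1, 4 of 4 laminin beta and gamma chains of the set rose, beside 24.2% of all genes. LAMB1 rose by 0.18 and LAMB2 by 0.21. LAMA2, the alpha chain of muscle laminin, fell in Dsh from 9.23, 10.5 and 8.99 to 3.81, 4.54 and 3.3 CPM (-1.30, adjusted p = 3.35e-07, edgeR), and LAMA5 was 0.06 (adjusted p = 0.357, edgeR).

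The linkers and proteoglycans were all higher with shYY1 in ACHN, 4 of 4, beside 24.2% of all genes. In Dsh they were divided, with the nidogens lower and the proteoglycans higher, beside 32.0% of all genes lower and 30.7% higher. NID2, a nidogen that binds laminin gamma1 and collagen IV (ENSG00000087303, chromosome 14 from 52004803 to 52069228), had 32.9, 37.7 and 34.3 CPM in shNC, 29, 32.9 and 28.5 with shKDM5C, 154, 158 and 141 with shYY1 and 15.7, 19.3 and 19 in Dsh. The groups of shYY1 and Dsh lay on opposite sides of shNC, at 2.09 (standard error 0.0488, edgeR adjusted p = 1.57e-27) and -0.95 (adjusted p = 2.25e-08, edgeR). NID1 rose with shKDM5C, from 229.9, 240.3 and 238 to 332, 314 and 327 CPM (0.44 (standard error 0.0328, edgeR adjusted p = 1.55e-11)), and with shYY1 (0.36), and was lower in Dsh (-0.17, adjusted p = 0.00278, edgeR). AGRN had 1157, 1126 and 1100.4 CPM in shNC and 2150.2, 2201 and 2371 CPM in Dsh, every Dsh library well above the control ones, a change of 1.0 (standard error 0.0429, edgeR adjusted p = 4.36e-13). With a single hairpin it was within 0.06 and 0.07 of shNC. These small calls were lost with shKDM5C without shKDM5C replicate 1 (0.113), shNC replicate 2 (0.0563) or shNC replicate 3 (0.109), and with shYY1 without shNC replicate 2 (0.075), shNC replicate 3 (0.163) or shYY1 replicate 2 (0.137). HSPG2, perlecan, was 0.43 in Dsh (adjusted p = 2.98e-07, edgeR), at 832, 944 and 937 CPM against 683, 684 and 652 in shNC.

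Dsh in ACHN was not the sum of the single knockdowns for most members. The interaction, the log2 change in Dsh minus the sum of both single changes, was fitted over all 12 ACHN libraries and called for 13 of 31 members above the sum and 10 below it, beside 26.8% and 28.8% of all genes. COL5A2 lay furthest above the sum, by 4.86 (standard error 0.131, edgeR adjusted p = 3.06e-20). COL6A3 followed at 3.82 (standard error 0.744, edgeR adjusted p = 1.01e-04), COL1A1 at 3.34 (standard error 0.0687, edgeR adjusted p = 1.61e-22), COL8A1 at 2.76 (standard error 0.127, edgeR adjusted p = 1.84e-15) and COL13A1 at 2.23 (standard error 0.626, edgeR adjusted p = 0.00388). For COL1A1 and COL8A1 this means a smaller loss in Dsh than the single losses added together. Furthest below the sum were NID2 at -2.83 (standard error 0.104, edgeR adjusted p = 1.9e-17) and COL16A1 at -2.60 (standard error 0.0832, edgeR adjusted p = 1.22e-18), both higher with shYY1 and lower with shKDM5C. COL12A1 at -1.35 (standard error 0.0612, edgeR adjusted p = 1.43e-15) and COL5A1 at -1.17 (standard error 0.0607, edgeR adjusted p = 1.99e-14) had the same pair of calls. NID1 at -1.01 (standard error 0.0555, edgeR adjusted p = 6.43e-14) was higher with either hairpin alone. The 2 targets themselves had called interactions in ACHN, 1 above the sum and 1 below it. The mean of YY1 was also less low in Dsh than with shYY1. Dsh therefore does not combine the single knockdowns at equal strength, and the part of this in the interactions was not tested.

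Small interactions of abundant members were less firm. The call of COL6A1 (-0.24, adjusted p = 0.0265, edgeR) was lost without Dsh replicate 1 (0.0798), Dsh replicate 2 (0.0567), shKDM5C replicate 1 (0.0748), shKDM5C replicate 2 (0.0562), shNC replicate 1 (0.074) or shYY1 replicate 2 (0.0788). It was also lost, with those of COL4A1 (-0.15) and COL4A2 (-0.21), when libraries were scaled by total counts alone. LAMA3 and COL18A1, at 1.60 and 1.23, were above the sum, and their Dsh level was above that of every other ACHN group.

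**Figure D4:**
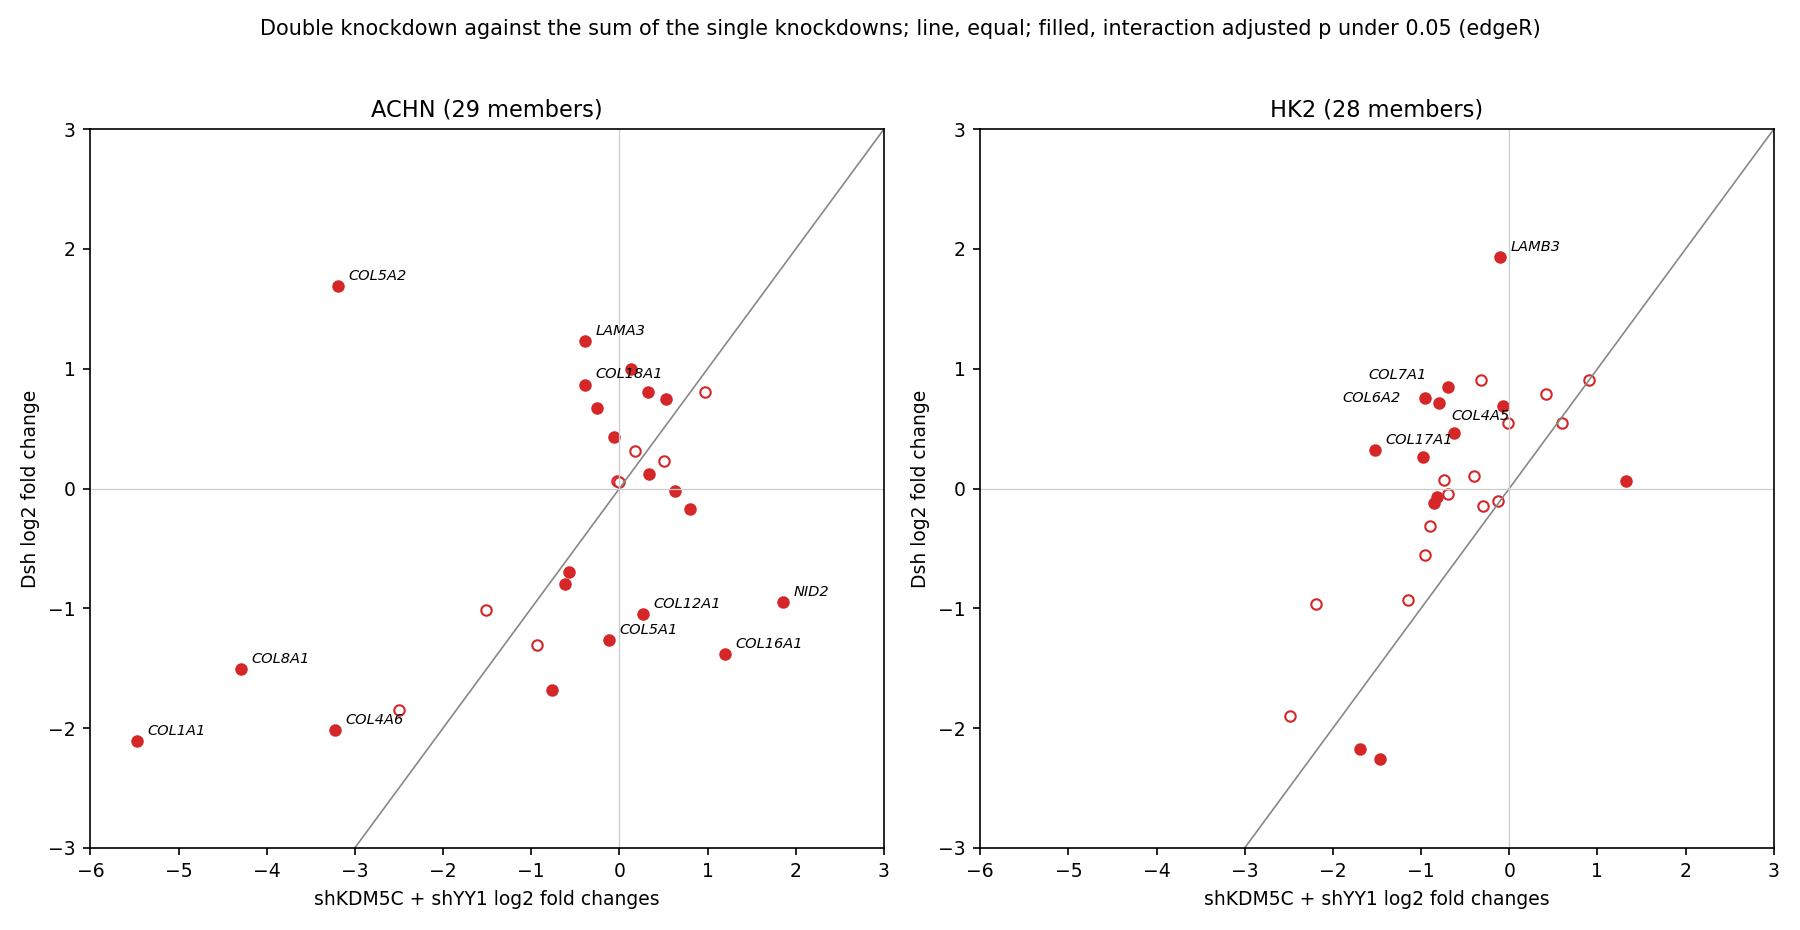
Log2 change in Dsh against the sum of the shKDM5C and shYY1 changes, for 29 members in ACHN and 28 in HK2, with a line where both are equal and filled points for an interaction at an edgeR adjusted p under 0.05. In ACHN, COL5A2, COL1A1 and COL8A1 lie above the line and NID2 and COL16A1 below it, and in HK2 LAMB3 lies furthest above.

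HK2 cells shared the direction of some ACHN changes in Dsh and not of others. Of 28 members tested in HK2 Dsh, 12 rose and 8 fell, beside 25.5% and 24.3% of all genes, and 4 called members changed by at least 1.5 log2 units, beside 4.30%. With shYY1, 17 fell and 3 rose, beside 14.7% and 14.3%, with a median of -0.26 over members. With shKDM5C, 3 fell and 1 rose, beside 0.656% and 0.668%. Without replicate 1 of shKDM5C, 13 fell and 7 rose of the same 28, beside 10.9% and 11.5%. The summed level of the 34 members was 10414 ± 291 CPM in shNC, 8458 ± 2493 in shKDM5C, 9165 ± 486 in shYY1 and 12286 ± 109 in Dsh (SD, n = 3), and the lowest shKDM5C library, at 5579 CPM, was replicate 1. Of the 9 renal epithelial markers tested, 3 were higher and 5 lower with shYY1, and 4 higher and 5 lower in Dsh. As in ACHN, these comparisons share their shNC libraries.

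**Figure D5:**
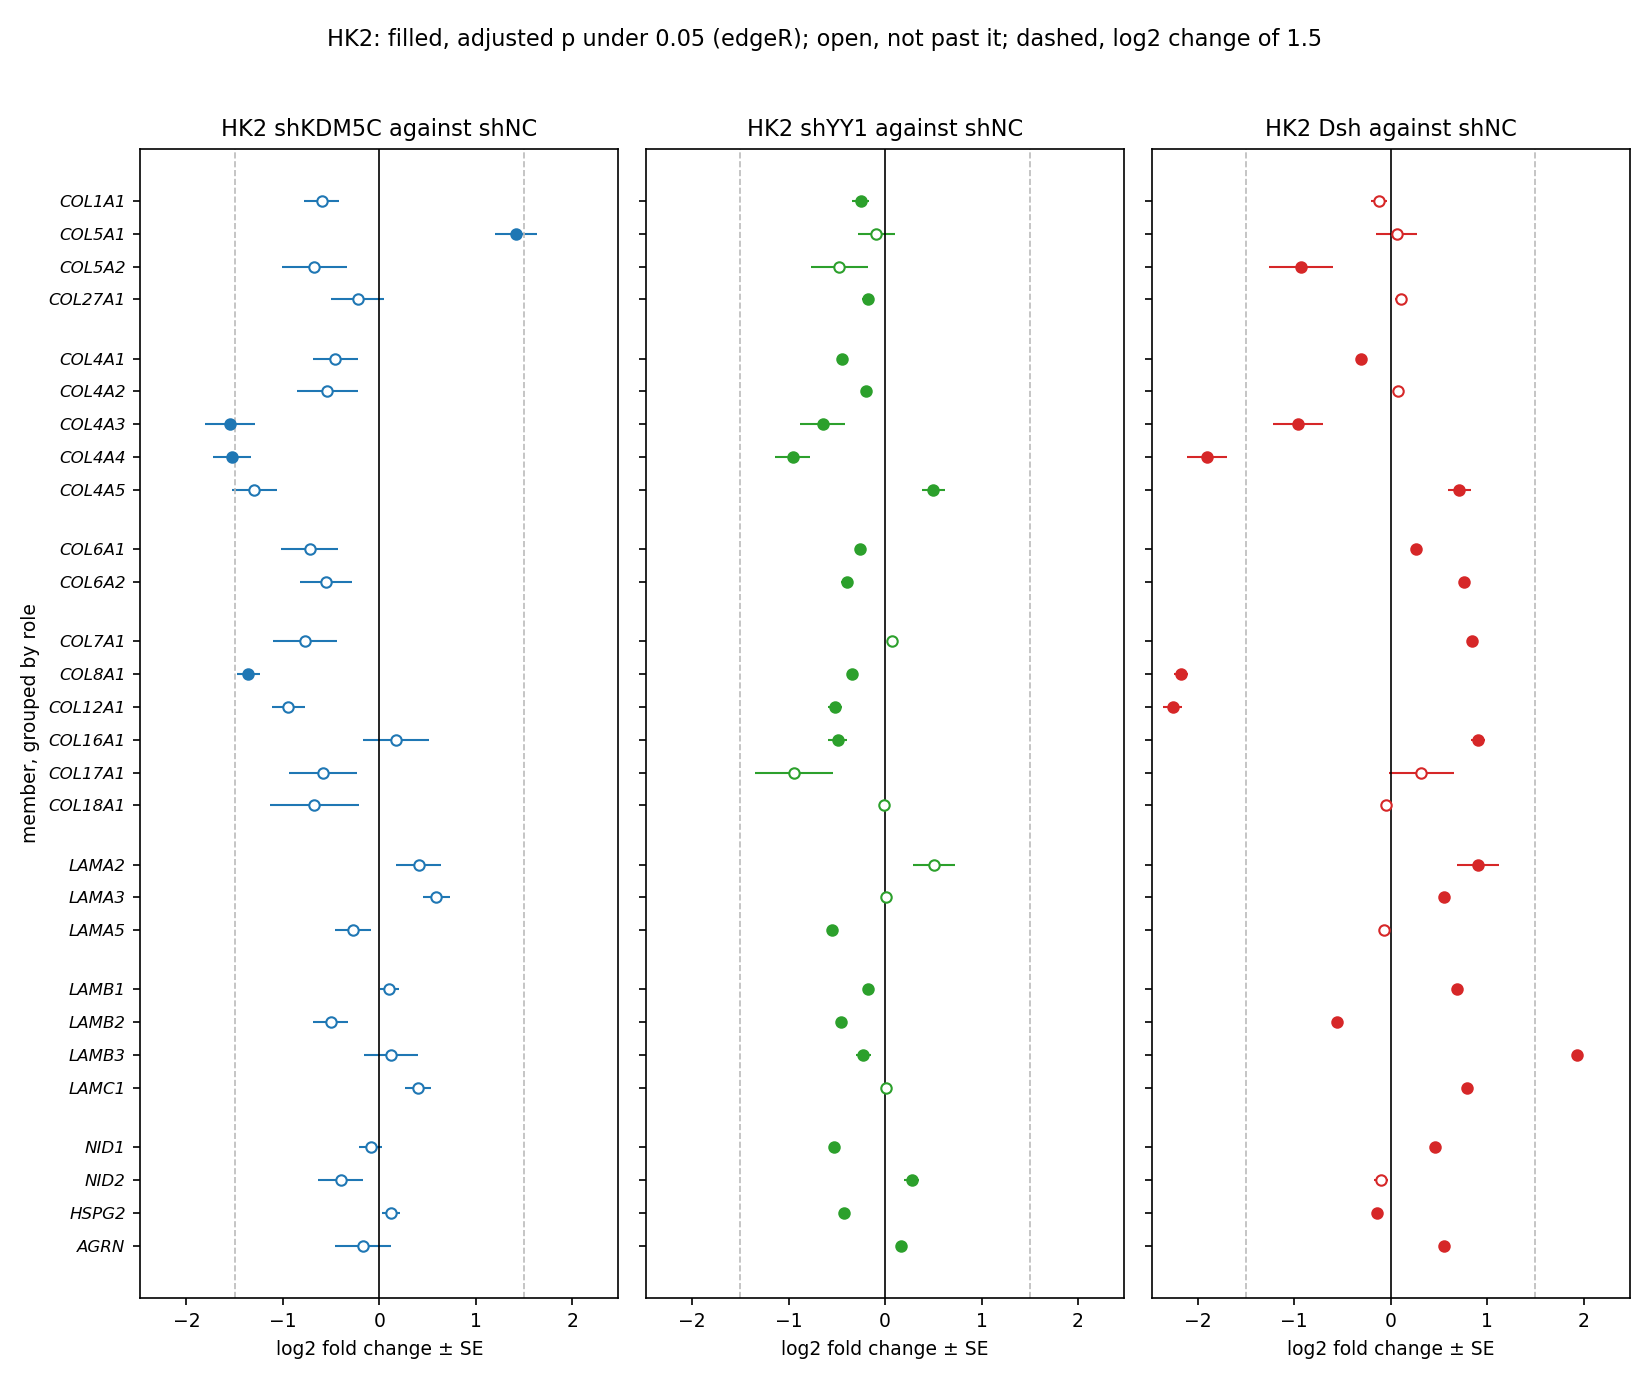
Log2 fold change of each tested member against shNC in HK2, for shKDM5C, shYY1 and Dsh, grouped by role, with bars for the standard error, filled points for an edgeR adjusted p under 0.05 and dashed lines at -1.5 and 1.5. LAMB3 is highest in Dsh, COL12A1 and COL8A1 are lowest in Dsh, and the wide bars of shKDM5C come with its replicate 1.

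A laminin chain, LAMB3, gave the largest increase among the members tested in HK2 Dsh. It had 62, 62.8 and 68.2 CPM in shNC, 36.6, 86.2 and 84.9 with shKDM5C, 62.2, 53.4 and 50.3 with shYY1 and 240.3, 244 and 254 in Dsh. The Dsh libraries were far above every other HK2 library, and the change was 1.93 (standard error 0.0507, edgeR adjusted p = 1.45e-23). LAMA3, the alpha chain of laminin-332, was higher too: it had 113, 104 and 106 CPM in shNC and 161, 162 and 151 CPM in Dsh (0.55, adjusted p = 1.37e-10, edgeR). LAMC1 rose from 651, 658 and 636 to 1129, 1098 and 1139.9 CPM (0.79 (standard error 0.0368, edgeR adjusted p = 1.43e-17)), and LAMB1 was 0.69 (adjusted p = 8.64e-16, edgeR). LAMA2 was scarce and higher in Dsh, 7.26, 5.4 and 4.42 CPM against 3.01, 2.98 and 3.09 in shNC, 0.91 (standard error 0.216, edgeR adjusted p = 7.85e-04). LAMB2, the beta2 chain of the glomerular membrane, was lower in Dsh at 136, 146 and 135 CPM against 209, 201 and 204 (-0.56, adjusted p = 1.87e-11, edgeR). With shYY1, LAMA5 fell from 1103, 1027 and 1027 to 809, 688 and 672 CPM (-0.55 (standard error 0.055, edgeR adjusted p = 1.08e-07)), and in Dsh it was -0.07 (adjusted p = 0.191, edgeR).

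Collagen IV in HK2 fell with shYY1, where 4 of 5 members tested were lower and COL4A5 was higher. Over all genes, 14.7% were lower and 14.3% higher. COL4A4, the alpha4 chain (ENSG00000081052, chromosome 2 from 227002711 to 227164113), had 7.98, 10.8 and 8.85 CPM in shNC, 2.74, 3.44 and 3.17 with shKDM5C, 5.23, 3.41 and 5.6 with shYY1 and 3.3, 1.88 and 2.21 in Dsh. All knockdown libraries were below shNC, by -1.53 (standard error 0.195, edgeR adjusted p = 0.0172) with shKDM5C, -0.96 (standard error 0.182, edgeR adjusted p = 3.39e-04) with shYY1 and -1.90 (standard error 0.207, edgeR adjusted p = 4.34e-09) in Dsh. COL4A3, from the other side of that promoter, had 4.37, 4.03 and 3.71, 1.43, 1.56 and 1.04, 2.38, 3.06 and 2.31 and 1.42, 2.29 and 2.49 CPM in the same groups, again with every knockdown library below shNC. It changed by -1.55 (standard error 0.263, edgeR adjusted p = 0.0453), -0.65 (standard error 0.232, edgeR adjusted p = 0.0394) and -0.96 (standard error 0.258, edgeR adjusted p = 0.00241). The shYY1 call of COL4A3 was lost without shNC replicate 1 (0.127), shNC replicate 2 (0.0823), shNC replicate 3 (0.0559), shYY1 replicate 1 (0.0949) or shYY1 replicate 3 (0.117). COL4A5 rose with shYY1, from 13.5, 11 and 11.4 to 17, 16.5 and 17.4 CPM (0.50 (standard error 0.116, edgeR adjusted p = 0.00217)), and in Dsh (0.71), while its partner COL4A6 had 17 counts over all 12 HK2 libraries and was not tested. COL4A1 was -0.31 in Dsh (adjusted p = 2.29e-09, edgeR) and COL4A2 0.08 (adjusted p = 0.0694, edgeR). The per kb ratio of COL4A1 to COL4A2 was 1.17 ± 0.0323 in shNC and 0.894 ± 0.0124 in Dsh, and in ACHN 1.18 ± 0.0131 and 1.27 ± 0.0562. The podocyte markers summed to 81.2 to 86.1 CPM in HK2 shNC and 53.1 to 70.1 with shKDM5C. Their sum was 70.5 to 85.7 CPM with shYY1 and 60.1 to 63.5 in Dsh. In Dsh both that could be tested, SYNPO and PODXL, were lower, beside 24.3% of all genes. The list's part in the HK2 collagen IV values was not tested.

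The calls of shKDM5C in HK2 depended on the libraries used. COL8A1 had 96.5, 106 and 101 CPM in shNC, 39.3, 37.5 and 38.5 with shKDM5C, 77.7, 77.5 and 85.5 with shYY1 and 21.3, 24.9 and 21.1 in Dsh. All shKDM5C libraries were alike for this gene, replicate 1 included, and the change was -1.36 (standard error 0.119, edgeR adjusted p = 0.00762), or -1.42 (standard error 0.0655, edgeR adjusted p = 6.66e-14) without replicate 1. COL5A1 had 4.32, 5.02 and 4.32 CPM in shNC and 8.28, 13.8 and 13.7 CPM with shKDM5C, all above shNC, a change of 1.41 (standard error 0.217, edgeR adjusted p = 0.0323), or 1.58 (standard error 0.153, edgeR adjusted p = 2.37e-08) without replicate 1. COL4A3 and COL4A4 changed by -1.64 and -1.49 without it. Leaving out another library lost these calls: COL8A1 without shNC replicate 1 (0.0961), shNC replicate 2 (0.102) or shNC replicate 3 (0.0982), COL5A1 without shKDM5C replicate 2 (0.124), shKDM5C replicate 3 (0.124), shNC replicate 1 (0.23), shNC replicate 2 (0.18) or shNC replicate 3 (0.22), COL4A3 without shKDM5C replicate 2 (0.133), shKDM5C replicate 3 (0.14), shNC replicate 1 (0.27), shNC replicate 2 (0.246) or shNC replicate 3 (0.215), and COL4A4 without shKDM5C replicate 2 (0.0777), shKDM5C replicate 3 (0.0869), shNC replicate 1 (0.128), shNC replicate 2 (0.151) or shNC replicate 3 (0.138). COL18A1 shows how far replicate 1 stood from its group, with 97.9, 438 and 429 CPM in shKDM5C and 549.5, 486 and 509.7 CPM in shNC. Without that library, COL12A1 (-1.12 (standard error 0.0812, edgeR adjusted p = 1.57e-10)) and COL4A5 (-1.14 (standard error 0.17, edgeR adjusted p = 1.64e-05)) were among the 13 lower members, and COL16A1 (0.50 (standard error 0.0841, edgeR adjusted p = 7.17e-05)) and LAMA3 (0.46 (standard error 0.0526, edgeR adjusted p = 3.53e-07)) among the 7 higher ones.

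Of the 6 anchoring and other collagens tested in HK2 Dsh, 2 rose and 2 fell, near the 25.5% and 24.3% of all genes. The 2 not called were COL17A1 (0.32) and COL18A1 (-0.05). COL12A1 (ENSG00000111799, chromosome 6 from 75084326 to 75206051) had 51.8, 54.9 and 52.8 CPM in shNC, 40.3, 34.9 and 36.3 with shYY1 and 11.4, 8.75 and 13.2 in Dsh. It was lowest in Dsh, with no overlap, and changed by -0.52 (standard error 0.0721, edgeR adjusted p = 8.29e-06) with shYY1 and -2.26 (standard error 0.101, edgeR adjusted p = 4.99e-18) in Dsh. COL8A1 changed by -2.17 (standard error 0.0714, edgeR adjusted p = 2.81e-21) in Dsh. COL7A1 went the other way from ACHN, from 454, 417 and 459.5 CPM in shNC to 763, 811 and 818 CPM in Dsh (0.84 (standard error 0.0421, edgeR adjusted p = 7.65e-17)). COL16A1 also rose, from 33.4, 28.6 and 29.6 to 55.2, 60.3 and 56.2 CPM (0.90 (standard error 0.0744, edgeR adjusted p = 1.07e-11)), and with shYY1 it fell to 20.4, 20.6 and 24.3 CPM (-0.49, adjusted p = 4.77e-04, edgeR). Collagen VI chains COL6A1 and COL6A2 were higher in Dsh (0.26 and 0.76) and lower with shYY1 (-0.26 and -0.40). COL5A2, at 1.86, 2.54 and 2.68 CPM in shNC and 1.0, 1.12 and 1.59 CPM in Dsh, changed by -0.93 (standard error 0.335, edgeR adjusted p = 0.0215), a call lost without Dsh replicate 1 (0.0765), Dsh replicate 2 (0.0598), shNC replicate 2 (0.0654) or shNC replicate 3 (0.0853). COL1A1 was -0.12 in HK2 Dsh (adjusted p = 0.231, edgeR), at 27.5, 29.1 and 28.5 CPM. Of the 12 fibroblast and mural markers, 8 were tested in HK2 Dsh, with 3 higher and 5 not called, beside 25.5% of all genes higher. DCN rose from 8 counts over shNC to 374 over Dsh, a ratio of 50.6 (95% counting interval 25.4 to 118). The list's sum was 704 to 753 CPM in shNC, 1015 to 1086 with shKDM5C, 800 to 891 with shYY1 and 837 to 903 in Dsh, led by RGS5, with 7 of the 12 under a mean of 1 CPM. Their part in these values was not tested.

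Of the linkers in HK2, NID1 fell with shYY1, from 266, 259 and 260.2 to 192, 173 and 179 CPM (-0.53 (standard error 0.0496, edgeR adjusted p = 3.5e-08)), and rose in Dsh to 358, 353 and 373 CPM (0.46, adjusted p = 7.78e-11, edgeR). NID2 had 52.1, 50.2 and 57 CPM in shNC and 73.2, 55.8 and 64.6 with shYY1, overlapping ranges, and changed by 0.28 (standard error 0.0795, edgeR adjusted p = 0.0109), a call lost without shNC replicate 2 (0.0715) or shYY1 replicate 1 (0.101). AGRN changed by 0.16 (standard error 0.0484, edgeR adjusted p = 0.0141) with shYY1, lost without shNC replicate 2 (0.127), shNC replicate 3 (0.053) or shYY1 replicate 1 (0.0901), and by 0.55 in Dsh (adjusted p = 1.27e-13, edgeR). HSPG2 was lower with shYY1 and in Dsh (-0.42 and -0.14).

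The interaction in HK2 was called for 10 members above the sum and 3 below it of 29 tested, beside 5.21% and 4.40% of all genes. Without replicate 1 of shKDM5C, which enters this fit, 19 were above and 3 below, beside 15.0% and 13.7%. LAMB3 was furthest above the sum, at 2.03 (standard error 0.308, edgeR adjusted p = 0.00154) with all libraries and 1.76 (standard error 0.0921, edgeR adjusted p = 1.41e-14) without that replicate. COL6A2 (1.71 (standard error 0.297, edgeR adjusted p = 0.00341)), COL7A1 (1.54 (standard error 0.357, edgeR adjusted p = 0.0175)) and COL4A5 (1.5 (standard error 0.255, edgeR adjusted p = 0.00298)) were also above, and were 1.44, 1.22 and 1.36 without it. COL17A1 (1.84 (standard error 0.507, edgeR adjusted p = 0.0379)) rests on few counts, 286 over the 12 HK2 libraries, and 8 of the 12 fits that left out a library lost its call. Below the sum were COL5A1 at -1.26 (standard error 0.31, edgeR adjusted p = 0.0227), COL12A1 at -0.79 (standard error 0.229, edgeR adjusted p = 0.0473) and COL8A1 at -0.48 (standard error 0.14, edgeR adjusted p = 0.0495). Of these, COL5A1 was lost in 6 of 12 such fits, COL12A1 in 8 and COL8A1 in 9, with adjusted p up to 0.0653, 0.114 and 0.142 (edgeR). COL7A1 was lost without shYY1 replicate 3 (0.051). COL1A1, COL6A1 and LAMA5, called above the sum, were each lost in 9 of 12.

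The double-knockdown effect was then compared between the lines in 1 fit of 12 libraries. Of 31 members tested, 10 had a higher and 13 a lower log2 change in ACHN than in HK2, beside 23.3% and 22.7% of all genes. COL5A2 differed most upwards, by 2.64 (standard error 0.236, edgeR adjusted p = 2.05e-10), having risen in ACHN and fallen in HK2. Its call against shNC in HK2 was lost in 4 of the 6 fits that left out a library. COL12A1 differed by 1.23 (standard error 0.109, edgeR adjusted p = 1.97e-10), COL18A1 by 0.93 (standard error 0.0709, edgeR adjusted p = 7.63e-12) and COL4A4 by 0.91 (standard error 0.264, edgeR adjusted p = 0.00569). COL6A3, with few counts in HK2, differed by 2.16 (standard error 0.827, edgeR adjusted p = 0.0338), a call lost in 7 of the 12 fits that left out a library, with adjusted p up to 0.262 (edgeR). Downwards, COL7A1 differed by -2.51 (standard error 0.0811, edgeR adjusted p = 3.94e-20) and COL16A1 by -2.27 (standard error 0.105, edgeR adjusted p = 1.4e-16), both lower in ACHN Dsh and higher in HK2 Dsh. LAMA2 differed by -2.19 (standard error 0.257, edgeR adjusted p = 3.81e-08) and COL1A1 by -1.97 (standard error 0.0815, edgeR adjusted p = 1.03e-17). COL4A6 differed by -3.75 (standard error 1.09, edgeR adjusted p = 0.00568), which rests on 9 counts over the 6 HK2 libraries of this fit and was lost without HK2 Dsh replicate 3 (0.172). COL4A3 differed by -0.87 (adjusted p = 0.0442, edgeR) and was lost in 9 of 12 such fits.

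Of the 28 members tested in Dsh in both lines, 7 were higher in both, beside 13.0% of the 14784 genes tested in both: the laminin-332 chains LAMA3 and LAMB3, LAMB1, LAMC1, COL4A5, COL6A2 and AGRN. Another 5 were lower in both, beside 12.7%: COL4A1, COL4A3, COL4A4, COL8A1 and COL12A1. Opposite calls were made for 6, beside 11.2%, of which COL5A2 and HSPG2 were higher in ACHN and COL7A1, COL16A1, LAMA2 and NID1 higher in HK2. The HK2 call of COL5A2 was lost in 4 of the 6 fits that left out a library. LAMB3 rose in both lines and rose more in HK2, by a difference of -1.10 (adjusted p = 2.34e-10, edgeR). AGRN and LAMA3 rose more in ACHN (0.47 and 0.70, adjusted p = 1.68e-07 and 2.41e-09, edgeR).

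The machinery around these chains was read from lists that do not overlap the 34 genes, and is given for Dsh. Of 19 genes of collagen folding and modification, 8 rose and 8 fell in ACHN, beside 30.7% and 32.0% of all genes, and 5 rose and 4 fell in HK2, near the 25.5% and 24.3% of all genes. COLGALT2, a collagen galactosyltransferase, was -2.55 and PPIB, a proline isomerase of the procollagen complex, -1.31 in ACHN, and CRTAP, its partner, was 0.80. The prolyl 4-hydroxylase P4HA2 was 0.56 in ACHN and 1.3 in HK2. In HK2, P3H2 and P4HA1 fell by 0.57 and 0.29, and P3H3 rose by 0.53 on the log2 scale. Of 15 genes of processing and crosslinking, 13 were tested in each line, with 3 higher and 8 lower in ACHN and 6 higher and 3 lower in HK2, to be read against the same shares. The procollagen N-proteinase ADAMTS14 was -2.95 and the lysyl oxidase relative LOXL3 -1.54 in ACHN, where the collagen IV crosslinker PXDN was 1.19 and transglutaminase TGM2 1.78. LOX, the lysyl oxidase, was 1.39 and ADAMTS3 0.57 in HK2, with LOXL4 and LOXL1 at -0.57 and -0.37. Each of these genes passed an edgeR adjusted p of 0.05.

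Among 15 receptors, 7 rose and 6 fell in ACHN, beside 30.7% and 32.0% of all genes, and 6 rose and 5 fell of 13 tested in HK2, beside 25.5% and 24.3%. ITGA3, the alpha chain of the laminin-332 receptor, was 1.53 in ACHN and 1.01 in HK2, and BCAM, a receptor of laminin alpha5, was -1.40 and -1.45. The collagen receptor chain ITGA11 was 1.77 and the laminin receptor chain ITGA7 -1.77 in ACHN, and in HK2 ITGA1 was 1.18 and ITGA6 -0.76. Other basement membrane genes fell in ACHN, with 10 lower and 2 higher of 14 tested and a median log2 change of -1.33 beside -0.01 over all genes. Nephronectin (NPNT), a ligand of integrin alpha8, was -4.60 and MATN2 -2.20, and TINAG, a tubular basement membrane antigen, was 2.35 and SPARC 0.43. In HK2, 7 were lower and 5 higher of 15 tested, with NTN4 at -1.12, MATN2 at -1.10, FBLN1 at 0.67 and EFEMP2 at 2.23.

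Of 26 further collagen and laminin chains, 11 were tested in each line. In ACHN 7 were lower and 2 higher, beside 32.0% and 30.7% of all genes, and in HK2 4 were lower and 5 higher, beside 24.3% and 25.5%. COL9A3, a cartilage collagen chain, had 115 counts over ACHN shNC and 5 over Dsh, a ratio of 25.4 (95% counting interval 10.6 to 79.8). COL9A2 had 58 against 0, at least 21.4-fold lower in Dsh with a floor of 3 counts over the group. LAMA1 was 0.30 (adjusted p = 1.81e-05, edgeR). In HK2, COL26A1 had 202 counts in shNC and 17 in Dsh, a ratio of 11 (6.69 to 19.2), LAMC3 was -0.92, and COL15A1, a basement membrane zone collagen, and COL28A1 were 2.77 and 3.04. All of these changes passed an edgeR adjusted p of 0.05.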

How the data were processed

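Paired-end RNA-seq libraries (NEBNext Ultra kit) of 8 groups with 3 libraries each were counted per gene. The authors aligned reads with HISAT2 2.0.5 and counted with featureCounts, version 1.5.0-p3 per the labels and 2.0.1 per the file headers, paired and with no strand option, on Ensembl release 84 of GRCh38. What was deposited are unnormalized whole-number counts, 1 table for each library. Of 60675 genes, 4117 without a symbol held 0.243% of counts. Samples were grouped by their labels, and none was left out. Library totals of 15926561 to 24272298 counts limit the precision of scarce members.

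From the counts, edgeR 4.0.16 in R 4.3.3 was run with TMM scaling, removal of low genes by filterByExpr, and quasi-likelihood F tests. Each knockdown was compared with shNC using the 6 libraries of both groups. The interaction used the 12 libraries of a line, and the comparison of the Dsh effect between lines the 12 shNC and Dsh libraries. P-values were adjusted by Benjamini-Hochberg over all genes tested, and a member was called at an adjusted p under 0.05. Standard errors were derived from the F statistic. CPM values shown use TMM factors over all 24 libraries. Ratios of scarce genes carry exact counting intervals (95%), which cover the error of counting alone, because PCR copies were not marked by molecular identifiers. An exact permutation test of 3 against 3 libraries cannot go under 0.1.

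Members and lists were chosen with earlier results of these data known. Full statistics were given to at most 5 members that rose most and 5 that fell most among those called in a comparison whose higher group averaged 1 CPM or more, and at most 2 genes in each direction were named from each list in Dsh. Alternatives were DESeq2 1.42.0, scaling by RLE or by total counts alone, no filter, a minimum of 10 counts, all 4 groups in 1 fit, the replicate number as a block, and each library left out in turn. Steps were tested on simulated counts. The smallest ratio of chi-square to degrees of freedom between replicates of a group was 1.94, so no pair of replicates agreed within sampling noise.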

Additional observations from a re-analysis of the deposited data

Results flagged for a closer look

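For 23 of 31 members tested, the log2 change in Dsh differed between ACHN and HK2 by edgeR's test of the difference itself (adjusted p under 0.05). Over all genes, 23.3% had a higher and 22.7% a lower change in ACHN by the same test. Each value here is the change in ACHN minus the change in HK2. Among fibrillar collagens the differences were -1.97 for COL1A1, -1.31 for COL5A1 and 2.64 for COL5A2. In collagen IV they were -0.37 for COL4A1, -0.86 for COL4A2, -0.87 for COL4A3, 0.91 for COL4A4 and -3.75 for COL4A6, the last on 9 HK2 counts. Collagens of the other classes differed by 2.16 for COL6A3, -2.51 for COL7A1, 0.69 for COL8A1, 1.23 for COL12A1, -2.27 for COL16A1 and 0.93 for COL18A1. Laminin chains differed by -2.19 for LAMA2, 0.70 for LAMA3, -0.36 for LAMB1, 0.63 for LAMB2 and -1.10 for LAMB3. Linkers and proteoglycans differed by -0.62 for NID1, -0.83 for NID2, 0.60 for HSPG2 and 0.47 for AGRN. COL4A3, COL4A6 and COL6A3 lost the call when 1 of certain libraries was left out. The causes of these differences were not tested.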

How the results depend on the processing

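Counts of members called moved little in ACHN: leaving out 1 library at a time gave 26 to 27 in Dsh, 22 to 24 for the interaction, 23 to 27 with shKDM5C and 22 to 25 with shYY1. The same step gave 25 to 28 for the control lines, 20 to 23 for the difference between lines, 19 to 21 in HK2 Dsh and 15 to 18 with HK2 shYY1. In HK2 the count with shKDM5C (4) was 9 with all 4 groups in the fit, 7 with DESeq2 and 0 to 20 on leaving out a library, 20 of them without shKDM5C replicate 1. Without that library the change of AGRN reversed, from -0.17 to 0.12, and over all fits that left out a library it ran from -0.35 to 0.12. The HK2 interaction (13) ranged from 5 to 22 and reached 22 without that library. With all 4 groups in 1 fit, HK2 shYY1 (20) had 3 calls and HK2 Dsh (20) had 16. With shKDM5C replicate 1 also removed, a choice made after seeing the data, these were 19 and 20. Over all results and alternatives, 4022 kept their side of the threshold, 69 passed it newly, 211 no longer passed and 1 reversed with a call. Changes of direction where neither fit passed the threshold are counted among the 4022. COL27A1 with HK2 shKDM5C, for example, was -0.23 with all libraries and 0.05 without replicate 1. The cause was not tested.

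Replicate numbers did not pair the libraries: over 51 pairs of same-numbered libraries the correlation of deviations ran from -0.06 to 0.0363. With the replicate block, edgeR called 26 members in ACHN Dsh, 23 for the interaction, 27 with shKDM5C and 25 with shYY1, 26 for the control lines, 22 for the difference between lines, 21 in HK2 Dsh, 9 for the HK2 interaction, 20 with HK2 shYY1 and 0 with HK2 shKDM5C. COL1A2, COL3A1 and LAMA4 could be tested nowhere at this depth, COL4A6, COL6A3 and COL13A1 not in the HK2 knockdowns against shNC, COL6A3 not with either single hairpin in ACHN, and COL13A1 not with ACHN shYY1.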
